A study of Mus musculus with 2 samples.

Results

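Oligodendrocyte precursors, the dividing glial cells that give rise to myelin-forming oligodendrocytes, were described in single-nucleus RNA sequencing of mouse prefrontal cortex. A nucleus was counted as a precursor where Pdgfra, Cspg4 and Vcan together had 3 or more unique molecular identifiers (UMIs, each standing for 1 captured RNA molecule) and made up at least 0.2% of its UMIs, with at least 1 UMI of Pdgfra or Cspg4. Nuclei with 3 or more UMIs of the differentiation genes Enpp6, Gpr17 and Bmp4, or with over 1 UMI of the fibroblast genes Col1a2, Dcn and Slc6a13, were left out. Of 19551 barcodes with 500 or more detected genes, 187 met this rule, a share of 0.956% (exact binomial 95% interval 0.825 to 1.10%). Library 1 held 87 of them among 8892 barcodes, or 0.978% (0.784 to 1.21%), and library 2 held 100 among 10659, or 0.938% (0.764 to 1.14%), so the shares of the libraries overlapped.

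The study compared male wild-type C57BL/6 mice, 2 months old, that had received methamphetamine (METH, a stimulant that raises extracellular dopamine) at 5 mg/kg with mice that had received saline, both intraperitoneally for 14 days. The labels give 1 sample for METH and 1 for Control, each from the prefrontal cortices of 3 mice, and do not tie nuclei to single mice. No label assigned the number at the end of a barcode to METH or to Control, and none was inferred from the values, so METH and Control were not compared; library 1 and library 2 stand for those numbers. The libraries held 31273163 and 35292937 UMIs, and barcodes had between 431 and 67872 UMIs, with a median of 2931. A total of 154 barcode sequences occurred in both libraries; none of them was a precursor in both, and 1 precursor shared its sequence with a barcode of the other library.

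Oligodendrocyte precursors, also known as NG2 glia after the proteoglycan that Cspg4 encodes, remain in the adult brain, where they divide and spread through grey and white matter. Platelet-derived growth factor acting on the receptor encoded by Pdgfra drives their division and survival, and Olig2 and Sox10 hold them in the lineage. They carry glutamate and GABA receptors and receive synapses from neurons; when they differentiate, they lose Pdgfra and Cspg4, pass through a short stage marked by Bcas1, Gpr17 and Enpp6 and then make myelin proteins.

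The 187 nuclei held 222024 UMIs, with 586 to 2645 UMIs and a median of 1178 UMIs and 899 genes per nucleus. The medians were 1155 UMIs in library 1 and 1183 in library 2. Levels are given as CPM, the UMIs of a gene summed over a class of nuclei and scaled to 1000000 UMIs of that class, followed by an exact Poisson 95% interval. All intervals cover counting error only, because nuclei are not replicates. For comparison, simple marker rules gave 66 differentiating oligodendrocytes (Enpp6, Gpr17 and Bmp4), 1644 mature oligodendrocytes (Mobp, Mog, Mag, Ermn, Aspa and Opalin), 288 astrocytes, 1041 microglia, 1962 excitatory neurons and 741 inhibitory neurons. Of the 288 astrocytes, 236 were in library 2. A gene is called higher or lower where the ratio of CPM, with 20 CPM added on both sides, reached 2 in the pooled nuclei and in each library, among genes with 50 or more UMIs in the compared classes together. No p-value was computed. Levels are not given per transcript length, so they are compared between classes for a gene and not between genes.

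The members were chosen by Pdgfra, Cspg4 and Vcan, whose values are therefore a description. Pdgfra had a UMI in 173 of the 187 nuclei, Vcan in 162 and Cspg4 in 103; 70 nuclei had all 3 genes, 111 had 2 and 6 had only 1. The sum over the 3 genes ran from 3 to 10 UMIs with a median of 4, and from 0.201 to 0.941% of the UMIs of a nucleus. Pdgfra stood at 1671 CPM (1505 to 1850.0), Cspg4 at 653 CPM (551 to 768) and Vcan at 1581 CPM (1419.8 to 1755). In mature oligodendrocytes the same genes were at 6.64, 7.84 and 8.45 CPM.

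The label was checked with markers of this and other cell types. RNA freed from broken cells enters every droplet. A gene is therefore called above free RNA where its lower Poisson bound exceeded an estimate of that background. For each gene this was the lowest of 3 upper Poisson bounds, from mature oligodendrocytes, astrocytes and microglia, scaled by the excitatory neuron transcript Slc17a7. A gene thus had to exceed only the lowest of the 3 bounds. By this measure 2136 of the 13627 genes with at least 1 UMI in precursors (15.7%) were above free RNA, and 518 of the 690 with 50 or more UMIs (75.1%). The counts of listed genes above free RNA given below mix genes with no UMI, few UMIs and many UMIs. Neither 15.7% nor 75.1% is therefore a matched background for a list. A list with many genes of 50 or more UMIs stands nearer to 75.1%, and a list of sparse genes nearer to 15.7%. Slc17a7 was at 275 CPM in precursors, at 293 in mature oligodendrocytes, at 336 in astrocytes and at 334 in microglia. All 14 listed precursor markers were above free RNA, among them 10 that the rule did not use for inclusion or exclusion: C1ql1, Neu4, Lhfpl3, Matn4, Sox10, Olig1, Olig2, Megf11, Pcdh15 and Tnr. The summed level of these 10 genes was 13949 CPM in precursors, 9672 in differentiating oligodendrocytes and 471 to 1796 in mature oligodendrocytes, astrocytes, microglia and neurons.

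Markers of the next stage of the lineage were partly present: of 9 markers of differentiating oligodendrocytes 7 were above free RNA, Gpr17, Bcas1 and Tcf7l2 among them, with a summed level of 991 CPM in precursors against 12638 CPM in differentiating oligodendrocytes. Gpr17 and Bmp4, both among the 7, were limited by the rule, as was Enpp6, another of the 9. The same genes define differentiating oligodendrocytes, so part of the difference in the summed level follows from the rules. In mature oligodendrocytes the 9 markers summed to 982 CPM. Of 8 markers of neuroblasts and dividing progenitors 3 were above free RNA. None of the 8 markers of excitatory neurons was above free RNA. For Slc17a7, 1 of the 8, this was fixed in advance because it scales the background, and Slc17a6 had no UMI. The summed level of the 8 markers was 743 CPM, with 390.5 CPM in library 1 and 1045 CPM in library 2. Of 10 fibroblast markers 6 had no UMI, Col1a1, Col3a1 and Dcn among them, and of 9 pericyte markers 7 had none, Rgs5, Kcnj8 and Pdgfrb among them. Among 8 endothelial markers 4 had no UMI. Of 10 microglial markers C1qa alone was above free RNA, and of 12 astrocyte markers 4 were, among them Slc1a3, Slc1a2 and Gpc5. The defining astrocyte genes Aqp4 and Gja1 had 4 and 9 UMIs in precursors, 18.0 and 40.5 CPM, against 176 and 845 CPM in astrocytes. Of 9 inhibitory neuron markers Gad1, Erbb4 and Nxph1 were above free RNA, and of 12 markers of mature oligodendrocytes 2 were, Mog among them. Of the precursors 16 also met another rule: 8 that of microglia, 7 that of astrocytes and 1 that of excitatory neurons, and Scrublet called 7 of the precursors doublets. The levels of all 30 leading genes named below moved by less than their counting interval when either set was left out.

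Values just inside and just outside the limits of the rule are given for Lhfpl3, which the rule did not use. The 52 members with exactly 3 marker UMIs had Lhfpl3 at 4342 CPM (3823 to 4911), and 23 nuclei left out for having 2 had 3339 CPM (2583 to 4248). Matn4 was likewise at 789 CPM (578 to 1053) in these members and 455 CPM (208 to 864) in the nuclei left out. C1ql1 went the other way, at 481 CPM (319 to 694) in the members and 607 CPM (314 to 1061) outside. So did Sox10, at 343 CPM (210 to 530) and 557 CPM (278 to 996), and all these intervals overlapped. The 50 members whose marker share was under 0.3% had Lhfpl3 at 4309 CPM (3828 to 4834), against 2514 CPM (2146 to 2927) in 24 nuclei left out with a share of 0.1 to under 0.2%. Those 24 nuclei were larger, with a median of 2295 UMIs. Another 13 nuclei met the other conditions through Vcan alone, without Pdgfra or Cspg4, and had Lhfpl3 at 2037 CPM (1419 to 2832). Sox10 had no UMI in these 13 nuclei, while Pcdh15 was at 3433 CPM (2613 to 4428). In the members with exactly 3 marker UMIs Pcdh15 was at 3175 CPM (2734 to 3667). No nucleus was left out by the fibroblast condition alone.

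The leading genes are the 30 with the largest ratio of precursors over the highest of 6 other classes, leaving out the genes of the rule. They were picked for this difference, so their levels are a description. The ratio was taken in the pool, and not all of the 30 were called higher. Brinp3, Abhd2 and Qpct were called in neither direction against differentiating oligodendrocytes, nor were Etv1, Zeb1 and Mir9-3hg against astrocytes. Lhfpl3, which encodes a small tetraspan membrane protein, was at 4149 CPM (library 1) and 4808 CPM (library 2), and at 4504 CPM (4229 to 4792) in the pool. The next class, differentiating oligodendrocytes, had 976 CPM (799 to 1182), a difference of 4.61-fold (3.77 to 5.70), and mature oligodendrocytes had 51.3 CPM. Lhfpl3 had a UMI in 181 of 187 precursors. After each nucleus was thinned to 600 UMIs, it was found in 87.1% (81.4 to 91.6) of precursors, in 39.4% (27.6 to 52.2) of differentiating oligodendrocytes and in 3.83% (1.93 to 6.75) of astrocytes, a class that should lack it; in the unthinned nuclei these shares were 96.8, 60.6 and 4.86%, at median depths of 1178, 1579.5 and 1199.5 UMIs.

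Megf11, a cell-surface protein that takes part in spacing between like cells in the retina, had the largest such ratio, at 586 CPM (447 to 754) in library 1 and 309 CPM (218 to 426) in library 2. The libraries did not overlap, and library 1 was higher; both lay above the 55.8 CPM of differentiating oligodendrocytes and the 4.22 to 23.7 CPM of the other classes. C1ql1, a secreted C1q-like protein that binds adhesion receptors at synapses, was at 615 CPM (library 1) and 510.1 CPM (library 2) and at 3.75-fold (2.22 to 6.77) the level of differentiating oligodendrocytes. Matn4, a matrix protein of the matrilin family, was at 1132 CPM (library 1) and 861 CPM (library 2), against 214 and 227 CPM in differentiating and mature oligodendrocytes. Emid1, Stk32a and Gm38505 belong to the same group, with 477, 383 and 252 CPM in precursors and at most 65.1, 55.8 and 72.2 CPM elsewhere.

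Pcdh15, a protocadherin best known from the tip links of hair cells, was at 2879.6 CPM (library 1) and 3286 CPM (library 2); it was 3.14-fold (2.90 to 3.39) higher than in excitatory neurons, the next class. Serpine2, an inhibitor of extracellular serine proteases, was at 1315 CPM (1169 to 1475), 2.63-fold (2.18 to 3.17) the astrocyte level. Brinp3, at 1811 CPM (1638 to 1997), was 2.26-fold (1.79 to 2.89) the level of differentiating oligodendrocytes in the pool, without a call. Sema6d, a transmembrane semaphorin, was at 1009 CPM (881 to 1150.0) and Slc35f1 at 1225 CPM (1084 to 1379.7). The group held regulators of transcription too: Ebf1 at 261 CPM (198 to 338), the ETS factor Etv1 at 257 CPM (194 to 333) and Zeb1, a zinc-finger repressor, at 698 CPM (593 to 817). Zeb1 had 330.4 CPM in astrocytes, its next highest class. The remaining members were Chst11, Epn2, Phlda1, Cacng4, Sdc3, Xylt1, Ednrb, Usp24, Abhd2, Qpct, Olfm2, Arxes2, Plppr5, Rev3l and the noncoding Mir9-3hg, at 225 to 1288 CPM. Epn2, which encodes an endocytic adaptor, was at 761 CPM against 192 CPM in mature oligodendrocytes, its next class.

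**Figure D1:**
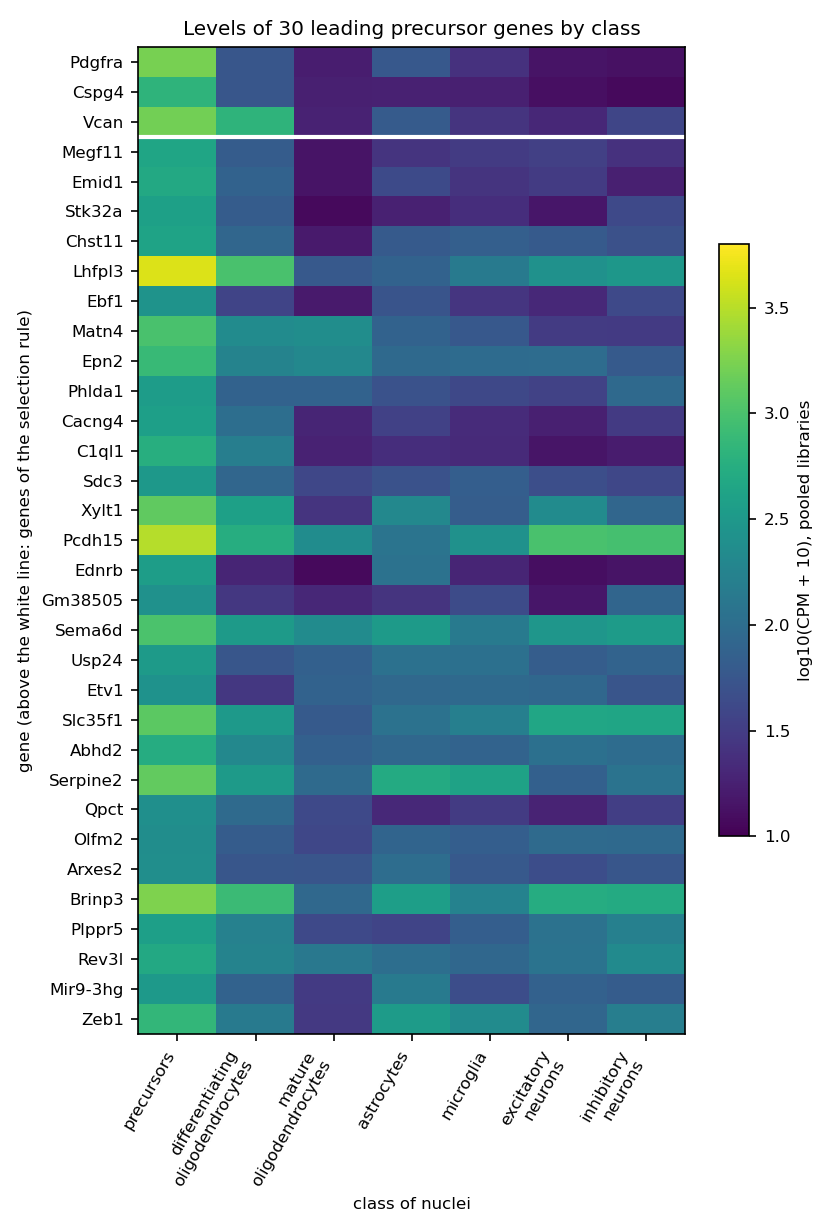
Levels of the 3 genes of the selection rule (above the white line) and of the 30 leading genes in 7 classes of nuclei, as log10 of pooled CPM plus 10. Precursors form the brightest column in every row by choice of the genes, and differentiating oligodendrocytes follow for Lhfpl3 and Brinp3, with 976 and 799.8 CPM.

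Thinned to 600 UMIs, single precursors had UMIs of 2 to 16 of the 30 leading genes, with a median of 9, and 3 of 186 nuclei had 3 or fewer. The median was 3 in differentiating oligodendrocytes, 2 in astrocytes and in both kinds of neurons, and 1 in mature oligodendrocytes and microglia. Precursors that also met another rule had a median of 9.5 (16 nuclei), and those that Scrublet called doublets had a median of 7 (7 nuclei). The 30 genes were picked for high levels in these same precursors. The higher median of precursors follows from that choice and is not a check of the members.

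Promoter sequences from RefSeq (GRCm38.p6) were available for 21 of the 30 leading genes, with 31 start sites. The 250 bases before each start were searched on both strands for the E-box CAGCTG, a motif of the basic helix-loop-helix family that includes Olig2, and for the SOX cores ACAAAG and ACAATG. Shown are 2 promoters that hold the E-box and belong to genes among the first 5 of the leading list; capitals mark the motif.
Lhfpl3, chr5:22745804-22746053, plus strand: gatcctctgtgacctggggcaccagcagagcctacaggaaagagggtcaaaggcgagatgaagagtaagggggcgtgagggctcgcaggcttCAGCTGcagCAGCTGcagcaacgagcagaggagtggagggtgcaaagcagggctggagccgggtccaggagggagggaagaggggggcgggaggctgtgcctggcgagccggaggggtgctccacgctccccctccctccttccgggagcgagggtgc
Chst11, chr10:82985247-82985496, plus strand: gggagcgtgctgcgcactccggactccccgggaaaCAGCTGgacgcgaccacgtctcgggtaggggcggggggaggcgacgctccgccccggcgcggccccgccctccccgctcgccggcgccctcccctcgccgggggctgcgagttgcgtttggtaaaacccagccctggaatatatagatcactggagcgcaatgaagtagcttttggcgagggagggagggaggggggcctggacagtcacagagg
The Lhfpl3 promoter held the E-box 2 times, and that of Chst11 held it 1 time; those of Pdgfra and Ednrb held none of the motifs. The E-box occurred in 4 of the 31 leading promoters (12.9%) and in 13.0% of all 32851 promoters, ACAAAG in 6 (19.4%) and in 16.5% of all, and ACAATG in 0 and in 10.7% of all. The share with the E-box was thus near that of all promoters, and a match is not a binding site.

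Proteoglycans and their matrix partners were mostly higher in precursors than in the later stages of the lineage. Of 28 listed genes, 14 had 50 or more UMIs in precursors and 19 were above free RNA. Against mature oligodendrocytes all 15 members tested were higher, with a median log2 ratio of 4.05, where 5.97% of 7165 genes were higher and 6.99% lower with a median of 0.0025. Against differentiating oligodendrocytes the list gave 11 higher and 1 lower of 15 (median 1.77), where 11.3% of 1270 genes were higher and 8.82% lower with a median of 0.089. Against astrocytes it gave 7 higher and 1 lower of 15 (median 0.91), where 8.67% of 2839 genes were higher and 8.38% lower with a median of -0.045. Against excitatory neurons it gave 15 higher and 0 lower of 24 (median 2.12), where 4.62% of 11831 genes were higher and 4.23% lower with a median of 0.070. These shares and medians over all genes tested are the background for each list given below as well. Cspg4 and Vcan, which chose the members, are among the genes counted. A gene can reach the minimum of 50 UMIs through precursors alone, as 14 of the 28 listed genes did. Genes low in both classes were not tested, so the counts of this and the later lists are a description.

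Ptprz1, a receptor phosphatase whose outer part carries chondroitin sulphate, was at 2928 CPM (library 1) and 3278 CPM (library 2), 87.5-fold (67.0 to 116) the level of mature oligodendrocytes and 6.09-fold (4.63 to 8.17) that of differentiating ones. Cspg5 (neuroglycan C) was at 1679 CPM (library 1) and 1664 CPM (library 2) and 9.46-fold (5.97 to 15.9) higher than in differentiating oligodendrocytes. Bcan and Tnr, the brevican and tenascin-R of the perineuronal matrix, followed another pattern. Bcan, at 1432 CPM (1279 to 1599), had 1544 CPM in differentiating oligodendrocytes and 1757 CPM in astrocytes, and was called in neither direction against either. Tnr was at 3143 CPM (library 1) and 2668 CPM (library 2) and at 6221 CPM (5759 to 6711) in differentiating oligodendrocytes, 2.15-fold (1.93 to 2.41) the precursor level in the pool, but was not called lower because library 1 stayed under the threshold. In mature oligodendrocytes Tnr was at 52.5 CPM.

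Enzymes that build the sugar chains differed in direction. Xylt1, the xylosyltransferase that starts glycosaminoglycan chains, was at 1288 CPM (1143 to 1446) and higher than in all 4 compared classes, 3.38-fold (2.43 to 4.81) against differentiating oligodendrocytes. Chst11, which sulphates chondroitin at the 4 position, was at 410.0 CPM (library 1) and 409.8 CPM (library 2) and was likewise higher against all 4, 5.51-fold (2.68 to 13.1) against differentiating oligodendrocytes. Csgalnact1, which starts chondroitin chains, was the 1 lower member: 122 CPM (80.1 to 177) in precursors and 586 CPM (450.2 to 749.6) in differentiating oligodendrocytes. Gpc5, a glypican that anchors heparan sulphate to the membrane, was at 3172 CPM (library 1) and 3027 CPM (library 2) in precursors, 23.8-fold (14.1 to 43.7) above differentiating oligodendrocytes and 53.4-fold (43.1 to 66.8) above mature ones, while astrocytes had more, 5605 CPM (5367 to 5852). The Has2, Tnc, Col9a1 and Col23a1 members had 0 to 2 UMIs.

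Of 27 listed genes for growth factors, their receptors and signalling 11 were above free RNA and 4 had no UMI, Met, Ret, Pdgfrb and Igf1. The list gave 4 higher and 0 lower of 7 (median 1.64) against differentiating oligodendrocytes, 5 higher and 1 lower of 15 (median 0.14) against mature ones, 4 higher and 2 lower of 12 (median -0.22) against astrocytes and 2 higher and 3 lower of 19 (median 0.18) against excitatory neurons, Pdgfra counted each time. Erbb4, a neuregulin receptor, was at 2013 CPM (1831 to 2209), with 1804 and 1823 CPM in differentiating and mature oligodendrocytes, 255 in astrocytes and 4417 in inhibitory neurons. Its partner Erbb3 had 19 UMIs, 85.6 CPM (51.5 to 134). The neurotrophin receptor genes Ntrk2 and Ntrk3 were at 419 CPM (338 to 513) and 482 CPM (395 to 582), both higher than in differentiating and mature oligodendrocytes; Ntrk3 was 5.76-fold (2.92 to 12.9) above the former. Nrg3, which encodes a neuregulin, was at 1698 CPM (library 1) and 1631 CPM (library 2) and higher than in oligodendrocytes of both stages and in astrocytes, while excitatory neurons had 6219 CPM. Fgfr2 ran the other way along the lineage, with 284 CPM in precursors, 521 in differentiating and 1180.3 in mature oligodendrocytes, and was not above free RNA in precursors.

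Of 28 transcription factors of the lineage 21 were above free RNA. They gave 5 higher and 2 lower of 14 (median 0.57) against differentiating oligodendrocytes, 8 higher and 5 lower of 21 (median 0.79) against mature oligodendrocytes, 6 higher and 2 lower of 17 (median 1.04) against astrocytes and 12 higher and 0 lower of 23 (median 1.34) against excitatory neurons. Sox10, a factor of the whole lineage, was at 396 CPM (318 to 488) in precursors, 586 CPM in differentiating and 338 CPM in mature oligodendrocytes, and was called in neither direction. Olig1 was at 478 CPM (library 1) and 468 CPM (library 2) against 260.4 and 241 CPM, also without a call, and Olig2, at 239 CPM (179 to 312), was higher than in mature oligodendrocytes (53.7 CPM). Sox6, which holds precursors in an immature state, was at 1162 CPM (library 1) and 937 CPM (library 2); differentiating oligodendrocytes had 1311 CPM, and mature ones 14.5 CPM, so that precursors were 71.8-fold (47.1 to 114) the mature level. Its relative Sox5 was already lower at the differentiating stage, with 896 against 316 CPM.

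Hes5, a Notch target that represses differentiation, was at 351 CPM (246 to 487) in library 1 and 251 CPM (169 to 358) in library 2. The intervals of the libraries overlapped, and differentiating oligodendrocytes had 37.2 CPM (10.1 to 95.2), mature ones 17.5 and astrocytes 449.5 CPM. The ETS factor Etv1 was 13.8-fold (3.65 to 117) above differentiating oligodendrocytes, and Etv4, with 41 UMIs in 38 nuclei, was at 185 CPM against 9.30 CPM there. Myt1, a zinc-finger factor of precursors, was at 176 CPM and at 4.83 to 27.9 CPM in the 6 other classes. Of 29 Notch, Wnt and BMP genes 7 were above free RNA; few could be tested, with 2 higher and 0 lower of 2 (median 1.67) against differentiating oligodendrocytes, 2 higher and 2 lower of 12 (median 0.11) against mature ones, 1 higher and 4 lower of 10 (median -0.84) against astrocytes and 1 higher and 1 lower of 14 (median -0.065) against excitatory neurons. The higher ones were Cntn1, a contactin at 1099 CPM (965 to 1246), and Dner, a Notch ligand-like protein at 279 CPM (214 to 358). Notch1 was at 81.1 CPM (48.0 to 128), and the Notch ligand gene Dll3 was at 54.0 CPM (27.9 to 94.4) against 1.81 to 9.30 CPM in the other classes.

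Of 30 listed myelin and differentiation genes 29 were found. Against differentiating oligodendrocytes they gave 0 higher and 17 lower of 21 (median -2.21), and against mature oligodendrocytes 2 higher and 18 lower of 27 (median -2.29). The list gave 3 higher and 0 lower of 16 (median 0.51) against astrocytes and 13 higher and 0 lower of 28 (median 1.3) against excitatory neurons, and 15 of the 29 were above free RNA. Enpp6, Gpr17 and Bmp4 were used to separate the classes and Mobp, Mog, Mag, Ermn, Aspa and Opalin to define mature oligodendrocytes, so their differences follow from the rules. Without these 9 genes the list gave 0 higher and 13 lower of 15 (median -2.21) against differentiating oligodendrocytes and 1 higher and 11 lower of 19 (median -1.62) against mature ones. Bcas1, a marker of newly forming oligodendrocytes, was at 322 CPM (library 1) and 192 CPM (library 2) and 9.96-fold (7.44 to 13.5) higher in differentiating oligodendrocytes, at 2511 CPM (2220.3 to 2829). Tcf7l2, a Wnt effector switched on in the same stage, was at 90.1 CPM (55.0 to 139) against 1218 CPM (1019 to 1446), 13.5-fold (8.41 to 22.9). Fyn, a kinase that couples axonal contact to myelin formation, was at 156 CPM (library 1) and 284 CPM (library 2) against 2929 CPM, and mature oligodendrocytes had 93.5 CPM.

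These genes were highest in the differentiating class of the lineage. Tns3, Mpzl1 and Itpr2 were likewise lower in precursors, at 131, 162 and 180.2 CPM against 1218, 1748 and 725 CPM. The 12 genes with the largest difference in this direction were led by 9630013A20Rik, a long noncoding RNA of the differentiating stage, at 45.0 CPM (21.6 to 82.8) against 3785 CPM (3426 to 4171), and included 9530059O14Rik, Frmd4a, Chn2, St18, Tmem108, Nfasc and Epb41l2. Frmd4a, a scaffold protein, was at 108 against 3608 CPM, 33.4-fold (22.1 to 52.7). Nfasc, the neurofascin of axon-glia junctions, was at 135 against 2046 CPM, and the zinc-finger factor St18 at 58.6 against 1367 CPM, with 2244 CPM in mature oligodendrocytes. Cd9, a tetraspanin, was at 1090.0 CPM (957 to 1236) against 4613 CPM (4216 to 5037). Mbp, which encodes myelin basic protein, was at 667 CPM in precursors, not above its free RNA level of 876 CPM, with 2576 and 4364 CPM at the later stages.

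**Figure D2:**
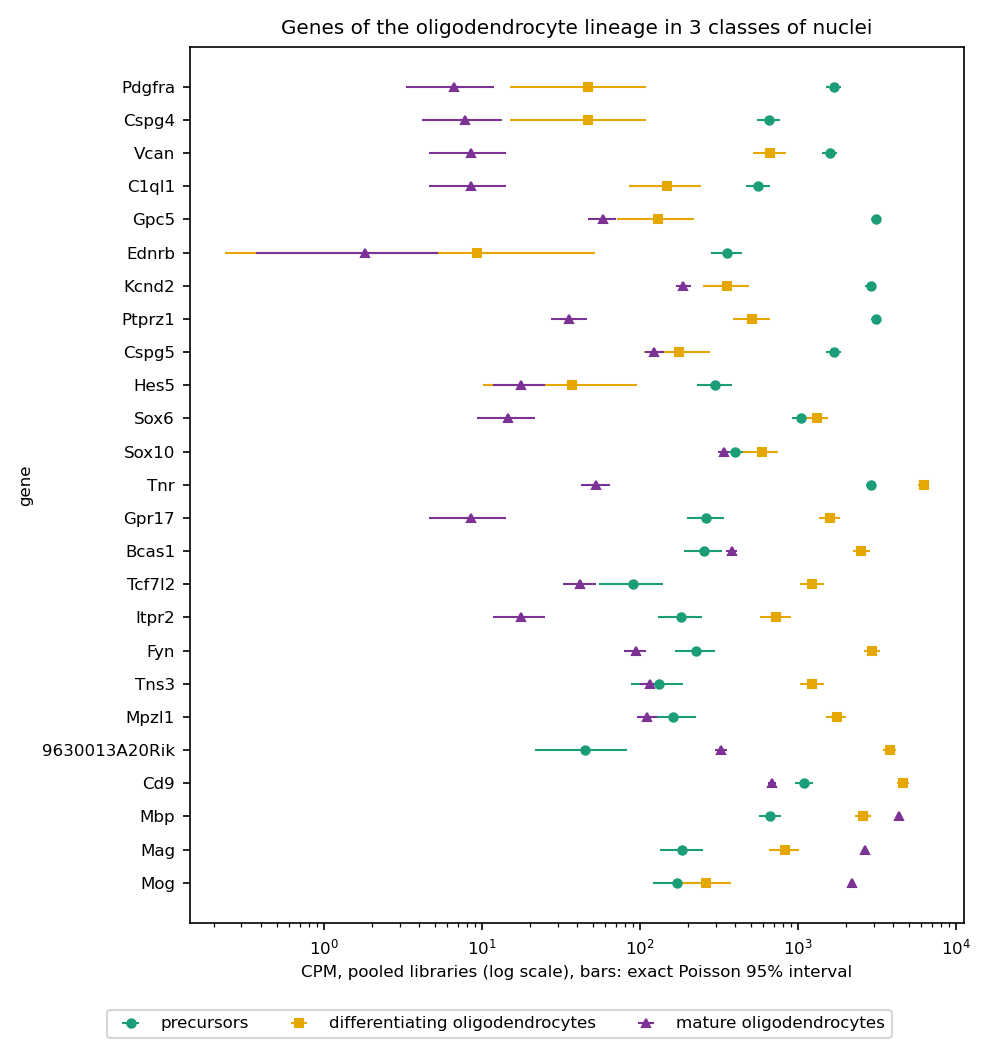
Pooled CPM of 25 genes on a log scale in precursors (circles), differentiating (squares) and mature oligodendrocytes (triangles), with exact Poisson 95% intervals. Pdgfra to Hes5 were highest in precursors, Sox6 to Cd9 in differentiating oligodendrocytes and Mbp to Mog in mature ones. Pdgfra, Cspg4, Vcan, Gpr17, Mag and Mog were used by the rules of the classes, so their differences follow in part from those rules.

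In the other direction the 12 largest differences included Gpc5, Ednrb, Rtl4, Nkain3, Unc13c, March1, Gm3764, Cspg5, Chl1, Kcnd2 and Etv1. March1, which encodes a ubiquitin ligase, was at 1162 CPM (library 1) and 1137 CPM (library 2) and at 102 CPM (51.1 to 183) in differentiating oligodendrocytes. Unc13c, a relative of synaptic priming factors, was at 369 CPM (294 to 458) against 18.6 CPM, and Nkain3 and Rtl4 each had 63 UMIs in precursors against 1 UMI in differentiating oligodendrocytes, 30.5-fold (5.28 to 1224). Gm3764 was also high in astrocytes, at 2326 CPM against 950.3 CPM in precursors.

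Some members had UMIs of the genes that mark differentiation. Of the 187, 133 had none of these UMIs, 44 had 1 and 10 had 2. Bcas1 was at 236 CPM (166 to 325) with none, at 225 CPM (116 to 393) with 1 and at 597 CPM (239.9 to 1229.5) with 2, and these intervals overlapped. The 5 nuclei that met the precursor rule but for 3 or more such UMIs had Bcas1 at 2494 CPM (1502 to 3895). Of these 5 nuclei 3 had exactly 3 such UMIs, with Bcas1 at 451 CPM (54.6 to 1629). Gpr17 itself, an orphan receptor of committed precursors, was found in 48 members at 261 CPM (198 to 338), at most 2 UMIs a nucleus by the rule.

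Precursors carried transcripts of all 3 families of ionotropic glutamate receptors. Of 26 listed subunits and auxiliary proteins 16 were above free RNA. They gave 10 higher and 0 lower of 21 (median 1.43) against mature oligodendrocytes, 8 higher and 1 lower of 18 (median 0.41) against astrocytes, 3 higher and 4 lower of 24 (median -0.0031) against excitatory neurons and 2 higher and 0 lower of 12 (median 0.38) against differentiating oligodendrocytes. Among the AMPA receptor subunits, Gria2, whose edited product keeps calcium out of the channel, was at 1445 CPM (library 1) and 1438 CPM (library 2), above mature oligodendrocytes (435 CPM) and not called against excitatory neurons (2118 CPM). Gria3 was at 563 CPM (469 to 671) and Gria4 at 707 CPM (601 to 827), and both were higher than in astrocytes. Gria1 was at 149 CPM (102 to 209), an interval that held its free RNA level of 117 CPM. Cacng4, a transmembrane protein that keeps AMPA receptors open longer, was higher than in all 4 compared classes at 371 CPM (library 1) and 376 CPM (library 2), against 7.74 to 93.0 CPM in the other 6.

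For NMDA receptors the common subunits were at the background. Grin1, Grin2a and Grin2b, at 149, 63.1 and 126 CPM, were not above free RNA and were lower than in excitatory neurons, which had 589, 705 and 1149 CPM. Grin3a, a subunit that lowers the calcium flow and magnesium block of the receptor, was at 371 CPM (library 1) and 385 CPM (library 2) and higher than in all 4 compared classes, 5.09-fold (2.47 to 12.2) against differentiating oligodendrocytes and 7.81-fold (6.11 to 9.88) against excitatory neurons. Inhibitory neurons had 212 CPM. The intervals of the libraries overlapped for this gene.

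Kainate receptor genes were present too. Grik1 was at 478 CPM (354 to 632) in library 1 and 176 CPM (109 to 268) in library 2, and these intervals did not overlap; the pooled level was 315 CPM (246 to 398) against 68.9 in excitatory and 926 CPM in inhibitory neurons. The high-affinity subunit Grik4 was at 162 CPM (114 to 224) against 25.9 CPM in mature oligodendrocytes, and the kainate receptor partner Neto1 at 216 CPM (159 to 287) against 16.9 CPM there. Grid1, which encodes a delta receptor that binds cerebellin proteins, was at 556 CPM (library 1) and 477 CPM (library 2). It was called in neither direction against differentiating oligodendrocytes, with 577 CPM, and was higher than in mature ones, with 36.2 CPM.

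**Figure D3:**
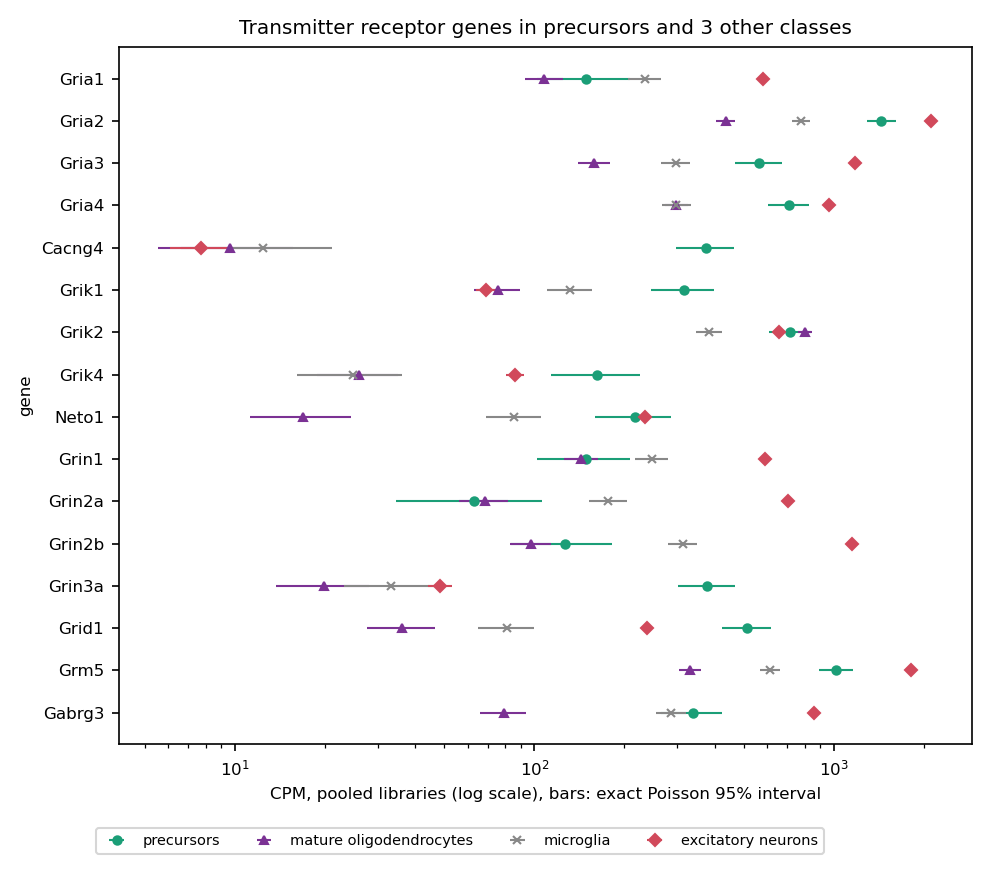
Pooled CPM of 16 receptor genes on a log scale in precursors (circles), mature oligodendrocytes (triangles), microglia (crosses) and excitatory neurons (diamonds), with exact Poisson 95% intervals. Cacng4, Grik1, Grin3a and Grid1 were highest in precursors of these classes, and Grin1, Grin2a and Grin2b were lower in precursors than in microglia.

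Of 20 listed GABA receptor and transporter genes 10 were above free RNA, with 7 higher and 1 lower of 15 (median 0.45) against mature oligodendrocytes, 0 higher and 0 lower of 5 (median 0.39) against differentiating ones, 0 higher and 2 lower of 14 (median -0.57) against astrocytes and 1 higher and 4 lower of 18 (median -0.68) against excitatory neurons. Among those higher than in mature oligodendrocytes were Gabra2, Gabra3, Gabrb1, Gabrb2 and Gabrg3, subunits of the GABA-A channel, and Gabbr2 of the GABA-B receptor. Gabrb1 was at 311 CPM (242 to 393) and Gabrg3 at 338 CPM (266 to 423), and both were lower than in excitatory neurons.

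Receptors for dopamine, the transmitter that METH raises outside cells, had few or no UMIs in these nuclei. Among 42 metabotropic, monoamine and other receptors and enzymes, 11 were above free RNA and 8 had no UMI: Drd1, Drd3, Adra2a, Htr1a, Htr7, Oprd1, Taar1 and Maob. With 222024 UMIs, 0 UMIs allow a level of up to 13.5 CPM (3 counts). Drd2 had 4 UMIs, 18.0 CPM (4.91 to 46.1), and was not above free RNA. Adra1a, an adrenergic receptor, had 12 UMIs in 12 nuclei, 54.0 CPM (27.9 to 94.4), and was above its free RNA level of 19.6 CPM. Maoa, an enzyme that breaks down monoamines, was at 54.0 CPM (27.9 to 94.4) and above free RNA.

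Ednrb and Grm5 were the members of that list higher than in differentiating oligodendrocytes. Ednrb, an endothelin receptor, was at 400.2 CPM (library 1) and 318 CPM (library 2); differentiating oligodendrocytes had 1 UMI, 9.30 CPM, a ratio of 38.3-fold (6.67 to 1530.1), mature ones 1.81 CPM and astrocytes 103 CPM. It was found in 60 precursors. Grm5, a metabotropic glutamate receptor coupled to calcium release, was at 1093 CPM (library 1) and 953 CPM (library 2) and higher than in oligodendrocytes of both stages and in astrocytes, 3.65-fold (2.49 to 5.53) against differentiating oligodendrocytes. The purine receptor P2rx7 was at 117 CPM (76.5 to 172) and the adenosine receptor Adora1 at 67.6 CPM (37.8 to 111). The list gave 2 higher and 0 lower of 5 (median 0.071) against differentiating oligodendrocytes, 3 higher and 2 lower of 15 (median 0.37) against mature ones, 2 higher and 2 lower of 7 (median -0.11) against astrocytes and 3 higher and 9 lower of 30 (median -0.63) against excitatory neurons.

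Of 40 genes for voltage-gated and leak channels 24 were above free RNA. The list gave 6 higher and 0 lower of 18 (median 0.44) against differentiating oligodendrocytes, 13 higher and 2 lower of 31 (median 0.65) against mature oligodendrocytes, 7 higher and 1 lower of 23 (median 0.64) against astrocytes and 4 higher and 8 lower of 38 (median -0.015) against excitatory neurons. Several of them form the A-type potassium current. Kcnd2, a pore subunit, was at 2694 CPM (library 1) and 3019 CPM (library 2), 8.12-fold (5.85 to 11.6) the level of differentiating oligodendrocytes and 1.69-fold (1.56 to 1.83) that of excitatory neurons. Its relative Kcnd3 was at 284 CPM (218 to 363), and their partners Kcnip3, Dpp6 and Dpp10 at 369, 401 and 545 CPM, all higher than in mature oligodendrocytes and astrocytes. Kcnh8, a potassium channel of the ether-a-go-go family, had 48 UMIs at 195 CPM (library 1) and 234 CPM (library 2), against 2.71 to 27.9 CPM in the 6 other classes.

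Sodium channel genes differed from one another. Scn3a was at 215 CPM (library 1) and 226 CPM (library 2) and higher than in oligodendrocytes of both stages and in astrocytes, 5.93-fold (2.18 to 22.6) against differentiating oligodendrocytes, and Scn1a was at 176 CPM (125 to 240.1) against 41.6 CPM in mature oligodendrocytes. Scn2a, at 144 CPM, was not above free RNA. The calcium channel genes Cacna1c and Cacna1d, at 257 CPM (194 to 333) and 167 CPM (117 to 229.7), were higher than in mature oligodendrocytes. Kcnj10, which sets the resting potential of glia, was at 85.6 CPM (51.5 to 134), close to the 89.9 CPM of mature oligodendrocytes and the 83.9 CPM of astrocytes, and higher than in excitatory neurons. Its partner Kcnj16 had 11 UMIs, 49.5 CPM, against 1.21 CPM in mature oligodendrocytes and 35.2 CPM in astrocytes.

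Adhesion and synapse-organising genes summed to 76460.2 CPM in precursors. All 50 were found, 48 were above free RNA and 40 had 50 or more UMIs. Of all genes with 50 or more UMIs in precursors, 75.1% were above free RNA. The list gave 30 higher and 4 lower of 47 (median 1.65) against mature oligodendrocytes, 23 higher and 1 lower of 44 (median 1.39) against astrocytes, 14 higher and 5 lower of 49 (median 0.35) against excitatory neurons and 13 higher and 1 lower of 41 (median 0.65) against differentiating oligodendrocytes. Nlgn1, a postsynaptic adhesion receptor, was at 3133 CPM (library 1) and 3487 CPM (library 2) and higher than in mature oligodendrocytes, with 619.7 CPM. Lrrc4c, a netrin-G ligand, was higher than in all 4 compared classes at 4765 CPM (4482 to 5061).

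Nxph1, a secreted ligand of neurexins listed here as a marker of inhibitory neurons, was at 1229.9 CPM (library 1) and 1489 CPM (library 2), close to the 1185 CPM (1144 to 1228) of inhibitory neurons and 22.1-fold (19.2 to 25.5) the level of excitatory ones. Gad1 and Gad2, the enzymes that make GABA, were at 76.6 and 36.0 CPM against 409.6 and 742 CPM in inhibitory neurons. Chl1, a relative of the L1 adhesion protein, was 11.7-fold (4.44 to 44.0) above differentiating oligodendrocytes at 437 CPM (354 to 533), and Dscam was 29.7-fold (19.1 to 48.6) above astrocytes at 1689 CPM (1522 to 1869). Opcml was the 1 member lower than in differentiating oligodendrocytes, with 3769.9 against 9402 CPM, and Pcdh9 was lower than in mature oligodendrocytes, with 4949.9 against 14155 CPM.

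Guidance genes gave 2 higher and 3 lower of 9 (median 0.10) against differentiating oligodendrocytes, 6 higher and 5 lower of 22 (median -0.074) against mature ones, 6 higher and 0 lower of 11 (median 1.29) against astrocytes and 7 higher and 13 lower of 34 (median -0.53) against excitatory neurons, and 13 of 35 were above free RNA. Sema3d, a secreted semaphorin, was at 410.0 CPM (library 1) and 426 CPM (library 2); differentiating oligodendrocytes had 325 CPM and the other 5 classes 5.72 to 51.3 CPM. Sema5a was shared differently, with 171 CPM in precursors and 763 CPM in differentiating oligodendrocytes. Ntn1, which encodes the attractant netrin-1, had 29 UMIs at 131 CPM (87.5 to 188) against 1.81 to 18.6 CPM in the 6 other classes, and its receptor gene Dcc was at 1484 CPM (library 1) and 1739 CPM (library 2), 4.71-fold (3.35 to 6.80) above differentiating oligodendrocytes. The receptor genes Robo1 and Epha5 were also higher than in differentiating oligodendrocytes, at 676 and 477 CPM against 251 and 112 CPM.

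Transcripts of the cell cycle, summed over 21 genes, were higher in precursors than in other classes and came mostly from few nuclei. The 21 cell cycle genes counted, from Top2a and Mki67 to the Kif and Bub families, gave 75 UMIs, 338 CPM (266 to 423). The sums were 361 CPM (254 to 498) in library 1 and 318 CPM (225 to 436) in library 2. The 6 other classes were at 93.0 to 129 CPM. Of the 187 nuclei 7 had 3 or more of these UMIs and held 44 of the 75; 4 were in library 1 and 3 in library 2, with 871 to 1684 UMIs in all. None of the 7 was called a doublet or met another rule, and the highest had 9 such UMIs. Their share was 3.74% (1.52 to 7.56%). Thinned to 600 UMIs, 2.15% (0.589 to 5.41%) of 186 precursors had 3 or more, against 0 of 66 differentiating oligodendrocytes (0 to 5.44%), 0 of 287 astrocytes (0 to 1.28%), 0 of 1639 mature oligodendrocytes (0 to 0.225%) and 0.405% (0.0836 to 1.18%) of inhibitory neurons.

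Top2a, which untangles DNA before cell division, had 12 UMIs in 5 precursors, 11 of them in these 7 nuclei. It was at 54.0 CPM (27.9 to 94.4) and at 0 to 5.72 CPM in the other classes. Over the wider list of 33 genes, which adds genes with roles outside division such as the cyclins Ccnd1 and Ccnd2, 6 were above free RNA and 4 had no UMI, a share near the 15.7% over all genes with a UMI. Ccnd1, the cyclin of early G1, was at 45.0 CPM (21.6 to 82.8) and Diaph3 at 67.6 CPM (37.8 to 111), and both were higher than in excitatory neurons. No member of the list had enough UMIs to be tested against differentiating oligodendrocytes or astrocytes. Against mature oligodendrocytes the list gave 0 higher and 0 lower of 2 (median -0.014). These 2 were Mki67, with a log2 ratio of -0.94 and so a lower level in precursors, and Diaph3, with 0.91. Against excitatory neurons the list gave 2 higher and 0 lower of 14 (median 0.37).

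**Figure D4:**
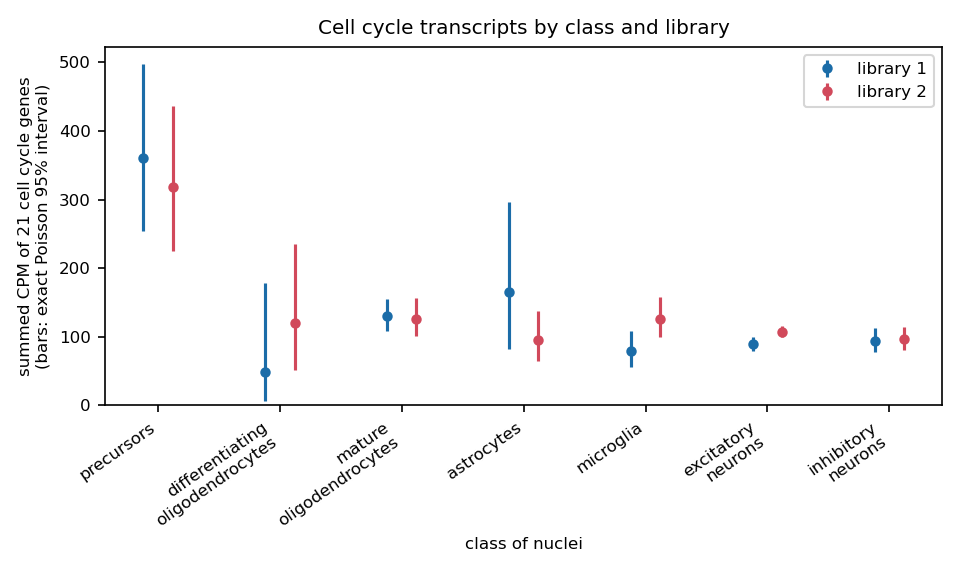
Summed CPM of 21 cell cycle genes in 7 classes, by library, with exact Poisson 95% intervals. Precursors were at 361 and 318 CPM in libraries 1 and 2, above the point value of every other class in either library.

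Immune and antigen presentation genes gave 1 higher and 1 lower of 5 (median 0.99) against differentiating oligodendrocytes, 2 higher and 1 lower of 11 (median 0.44) against mature ones, 2 higher and 0 lower of 6 (median 0.53) against astrocytes and 9 higher and 0 lower of 14 (median 1.35) against excitatory neurons, with 9 of 23 above free RNA. The class I gene H2-D1 was at 439 CPM (320.4 to 588) in library 1 and 201 CPM (129 to 299) in library 2, and the intervals did not overlap; mature oligodendrocytes had 129 CPM and microglia 689 CPM. B2m, the light chain of class I molecules, was at 279 CPM (214 to 358). Lrp1, an endocytic receptor, was higher than in differentiating and mature oligodendrocytes, at 437 against 112 and 42.8 CPM. C1qa was at 252 CPM in precursors against 2547 CPM in microglia, and 8 precursors also met the microglia rule; their part in the immune values was not tested.

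Clock genes gave 1 higher and 0 lower of 1 (median 1.71), 2 higher and 0 lower of 7 (median 0.30), 0 higher and 1 lower of 6 (median -0.73) and 0 higher and 2 lower of 12 (median -0.090) against the same classes in that order, and Rora, a nuclear receptor, was the higher gene against differentiating oligodendrocytes, at 1018 against 298 CPM. Activity and stress genes gave 0 higher and 1 lower of 5 (median 0.027), 0 higher and 0 lower of 12 (median 0.052), 0 higher and 3 lower of 8 (median -0.32) and 1 higher and 1 lower of 20 (median 0.47), with 3 of 25 above free RNA. The activity genes Fos, Egr1 and Arc had 2, 6 and 2 UMIs in all precursors, and Fosb had none. The metallothionein genes Mt1, Mt2 and Mt3 were lower than in astrocytes, with 432, 104 and 360.3 CPM against 1568, 788 and 1238 CPM, and were not above free RNA.

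Levels in precursors were also set side by side between the libraries. Among 690 genes with 50 or more UMIs in precursors, 6 were 2-fold or more higher in library 1 (0.870%) and 41 in library 2 (5.94%), with 20 CPM added on both sides. None of the 30 leading genes was among them. Higher in library 1 were, for example, Grik1 and H2-D1, given above. Higher in library 2 was Mt1, with 78.1 CPM (33.7 to 154) in library 1 and 736 CPM (590.2 to 907) in library 2. Mt3 was at 107 and 577 CPM, the ribosomal gene Rplp1 at 48.8 and 468 CPM and the respiratory gene Cox8a at 234 and 886 CPM. All 4 genes also had a higher level in library 2 in oligodendrocytes of both stages, astrocytes, microglia and both neuron classes: Mt1, for example, was at 186 and 798 CPM in mature oligodendrocytes and at 115 and 752 CPM in microglia. The free RNA transcript Slc17a7 was likewise higher in library 2, with 166 and 368 CPM in precursors and 211 and 417 CPM in mature oligodendrocytes, but not in astrocytes, with 421 and 317 CPM. The part of free RNA in these differences was not tested.

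**Figure D5:**
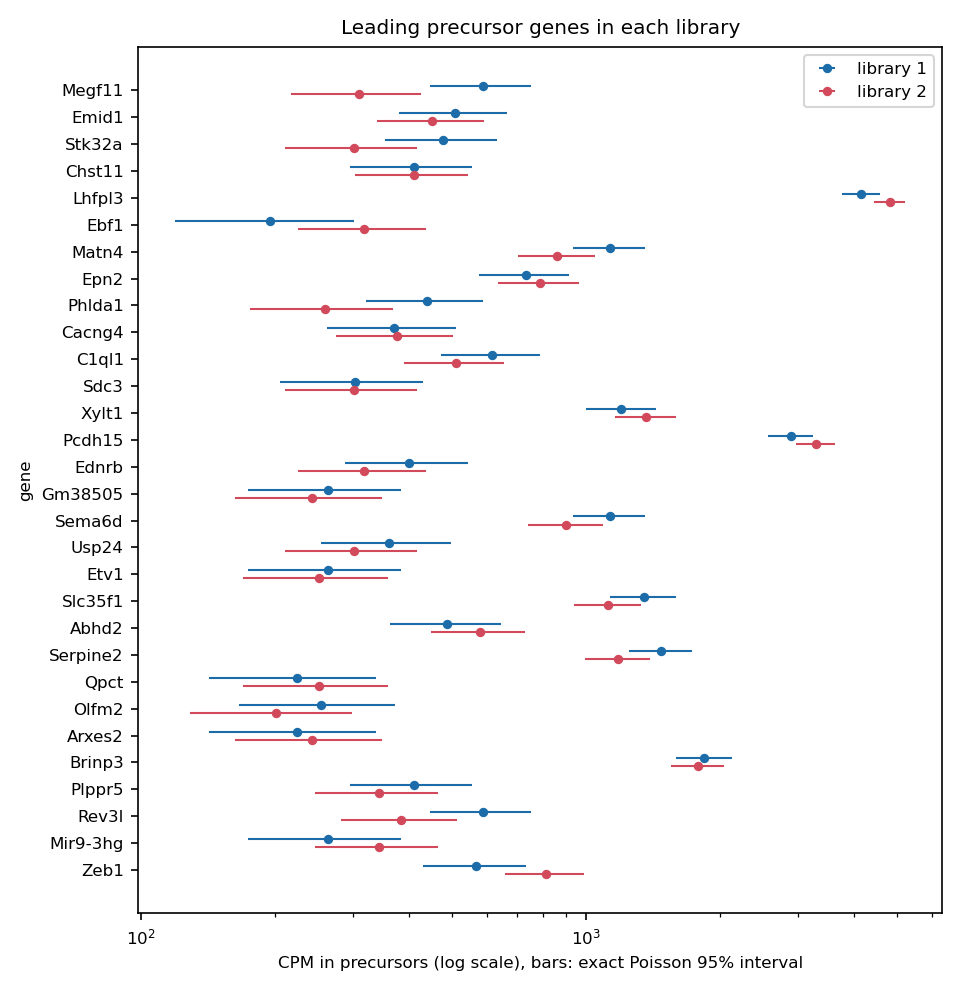
CPM of the 30 leading genes in precursors of library 1 (blue) and library 2 (red) on a log scale, with exact Poisson 95% intervals. The widest gap is that of Megf11, at 586 CPM (library 1) and 309 CPM (library 2).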

How the data were processed

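Nuclei were isolated on an iodixanol gradient and run on the 10x Genomics 3′ system, per the labels' protocols. The authors deposited 1 matrix of UMI counts, 31040 genes by 20766 barcodes, with the number at the end of a barcode giving the library. Cell Ranger 1.3.0, Seurat 3.1.4 and mm10 are listed in the submitters' processing notes, and per the file headers the matrix was written by software version 3.1.0; whether doublets had been removed is not given in the sources used here. Symbols that occur more than once (35) were left out.

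From these counts, UMIs were summed per class and given as CPM with exact Poisson 95% intervals; shares have exact Clopper-Pearson intervals, and ratios between classes are of plain CPM with exact conditional intervals. Calls used 20 CPM added on both sides, a 2-fold threshold and a minimum of 50 UMIs. Barcodes in 2 or more classes were left out of the comparison classes but kept among the precursors. Doublets were marked with Scrublet in Scanpy 1.11.5, which called 9.998% of barcodes in library 1 and 6.19% in library 2, and were kept. To compare detection, nuclei were thinned to 600 UMIs; shallower ones (1 precursor) were left out. Python 3.11.15, NumPy 2.4.6, SciPy 1.17.1 and pandas 2.3.3 were used.

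With 1 sample a group and no tie between barcodes and groups, no test was made. The members and the 15 gene lists were chosen with earlier results of these data known. Genes named are the 30 leading genes, the 12 with the largest ratio each way against differentiating oligodendrocytes, members of the lists and, for the libraries, genes chosen after their values were seen; some genes of these lists are not reported here. Median log2 ratios of a list are over its tested members. On simulated counts, the call rule found 60.0% of genes changed 3-fold against differentiating oligodendrocytes, 61.6% against mature ones, 70.0% against astrocytes and 37.4% against excitatory neurons. Of genes changed 6-fold it found 87.0% against excitatory neurons and 100% in the other 3 comparisons. Of unchanged genes it called 0 of 996, 13 of 6790, 2 of 2506 and 17 of 11571 in the same order. These counts were drawn with counting error only from the pooled profile of the compared class, and the highest genes were left unchanged. They held no difference between libraries or between nuclei, so the rates do not cover such differences in the data.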

Additional observations from a re-analysis of the deposited data

How the results depend on the processing

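The share of precursors moved with the rule: it was 0.339% (49 nuclei) with a minimum of 1000 genes, 0.425% (83 nuclei) with 5 marker UMIs and 0.399% (78 nuclei) with 0.4% of UMIs. Against differentiating oligodendrocytes, 143 genes were higher as reported, 54 with 1000 genes, 83 with 5 marker UMIs, 64 with 0.4% of UMIs and 45 with a minimum of 200 UMIs. Of these, 51, 74, 55 and 45 were among the 143. Against mature oligodendrocytes, the 428 genes became 143 with 1000 genes and 141 with 200 UMIs. Against astrocytes, the 246 genes became 70, 160 and 128 under the same 3 stricter rules, 122 in library 1 alone, which had 52 astrocytes, and 61 with 200 UMIs. Against excitatory neurons, the 547 genes became 822 in library 1 alone, 891 in library 2 alone, 938 with 5 CPM added and 325 with 200 UMIs. A higher minimum tests fewer genes, and 1 library alone drops the condition that both agree; the cause of the other shifts was not tested. Leaving out doublet calls or nuclei that met another rule, and weighting every nucleus alike, kept each of these counts within 1.5 times. Of the 30 leading genes, 11 moved in level with 0.4% of UMIs, 8 in library 1 alone, 6 with 1000 genes, 5 with 5 marker UMIs and 5 in library 2 alone. No paired analysis was possible because the labels give 1 sample per group and tie no library to a group. With 222024 UMIs in precursors, genes under 13.5 CPM could not be told from absent ones.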

Other observations

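Markers of neuroblasts were also looked at. Of 8 such markers Dcx, Sox11 and Top2a were above free RNA, with 16, 13 and 12 UMIs. Dcx, which encodes a microtubule-binding protein of migrating neurons, was at 48.8 CPM (library 1) and 92.0 CPM (library 2), with 122 CPM in excitatory and 118 CPM in inhibitory neurons. Sox11, a factor of immature neurons and glia, was at 58.6 CPM (31.2 to 100.1) against 16.9 CPM in mature oligodendrocytes. Dlx2, which marks interneuron progenitors, had no UMI.

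The sialidase gene Neu4 was at 369 CPM (294 to 458) in precursors, at 474 CPM (353 to 624) in differentiating oligodendrocytes and at 2.41 CPM (0.658 to 6.18) in mature ones, so that the intervals of precursors and differentiating oligodendrocytes overlapped. Astrocytes had no UMI of this gene.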
